A study of Homo sapiens with 7 samples.

Results

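The subtelomeric ends of 14 autosomes were examined for peaks of NuMA and histone H1 in HCT116 cells, an established line from a human colon cancer. An end was the last 3 Mb of a chromosome arm. Both ends were taken for the 11 chromosomes 1, 2, 3, 5, 6, 7, 8, 9, 11, 12 and 20, and the long-arm end alone for the 3 chromosomes 14, 15 and 21, which gave 25 ends and 75 Mb. The long-arm end was the last base of any peak in the 6 lists, which belonged to an H1 list on 7 chromosomes and to a NuMA list on the other 7, and the short-arm end was the first base of the chromosome. A long arm can run on past its last peak, so distances given from long-arm ends are lower bounds of those to the chromosome end. Steps of short and long arms may thus lie at unlike true distances. A peak belonged to an end when its summit lay within 3 Mb of it. The ends held 4465 of the 47959 peaks of all lists on chromosomes 1 to 22, X and Y, and the remaining 2002 Mb of the same 14 chromosomes held 23927. By list there were 1510 (NuMA C terminus), 2226 (NuMA N terminus), 205 and 321 (H1, wild-type replicates 1 and 2), 131 and 72 (H1, NuMA-depleted replicates 1 and 2).

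Subtelomeres lie between the telomeric repeats and the single-copy body of an arm. In the human genome many of them are rich in genes and in G and C, and their outermost parts hold blocks of sequence that several chromosomes share, so that short reads from there cannot always be assigned to 1 copy. NuMA organises the poles of the mitotic spindle and is a structural protein of the nucleus between divisions. Histone H1, the linker histone, binds where DNA enters and leaves the nucleosome and is known for compacting chromatin.

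By the labels, all samples were made by CUT&Tag, in which an antibody tethers the Tn5 transposase to chromatin so that DNA near the bound protein is cut and tagged, with 10000 cells per assay. H1 was profiled in 2 wild-type libraries, titled NC, and 2 libraries labelled as NuMA depletion, titled AID, and NuMA in wild-type cells with 1 antibody to its C terminus and 1 to its N terminus. The labels did not spell out AID or NC, nor say whether replicates were separate cultures, so the p-values below cover the spread between libraries alone, and that spread may be technical. Depletion and any other difference between the AID and the NC cells, such as a clone or a treatment, cannot be told apart. The degree of depletion cannot be read from peak lists. The names of the NuMA peaks, unlike those of the H1 peaks, hold the word ChIP-seq, so the assay behind the NuMA lists could not be settled, and H1 and NuMA levels were not set against each other. A library made with immunoglobulin G was not analysed here, so signal common to any antibody was not tested. Sequencing depth was estimated from the lowest background recovered from each list. The estimate was 58.6% and 58.5% of the wild-type H1 mean in the depleted libraries, so depth and group cannot be told apart either. It stands for depth only if that background came from the library itself, which the sources used here do not give. By the same estimate the C-terminal NuMA library had 30.0% of the wild-type H1 mean and the N-terminal one 49.8%.

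NuMA peaks were concentrated at the chromosome ends. The C-terminal list held 20.1 peaks per Mb at the ends and 3.05 per Mb in the rest of the same chromosomes, a ratio of 6.61 (95% exact binomial interval 6.24 to 6.995). The N-terminal list held 29.7 and 4.21 per Mb, a ratio of 7.06 (6.73 to 7.40). The ends thus carried 19.8% of the C-terminal and 20.9% of the N-terminal peaks of these chromosomes. These intervals cover counting error alone, there was 1 library per antibody, and neighbouring peaks are not independent, so no test was made of the difference. Against the adjoining 3 Mb of each arm, 3 to 6 Mb from the end, the ratio was 3.69 in the C-terminal and 3.59 in the N-terminal list. The rest was counted over its whole span, including stretches without any peak, which raises the ratios. Over only those 500 kb steps that hold a peak of any list, they were 4.83 and 5.16.

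Summed over the 25 ends, the NuMA excess was highest 1 to 1.5 Mb from the end. In steps of 500 kb from the end inwards, the C-terminal density was 5.46, 8.93, 9.61, 8.77, 3.99 and 2.89 times that of the rest. The N-terminal density was 5.80, 8.94, 10.7, 9.28, 4.66 and 2.99 times that of the rest. The sums were highest in the third step and lowest in the sixth for both antibodies, but single ends differed. Of the 24 ends with a NuMA peak, 9 had their highest number in the outermost step (1 of these tied with another step) and 3 in the third. The 3 ends with their maximum in the third step held 18 to 514 NuMA peaks with a median of 426, and the 9 ends with theirs in the outermost step held 1 to 462 with a median of 47. Just inside the 3 Mb limit, at 2.5 to 3 Mb, there were 110 C-terminal and 157 N-terminal peaks, and just outside it, at 3 to 3.5 Mb, 70 and 114. Of 25 ends, 15 (C-terminal) and 20 (N-terminal) had a peak in the outermost step.

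**Figure D1:**
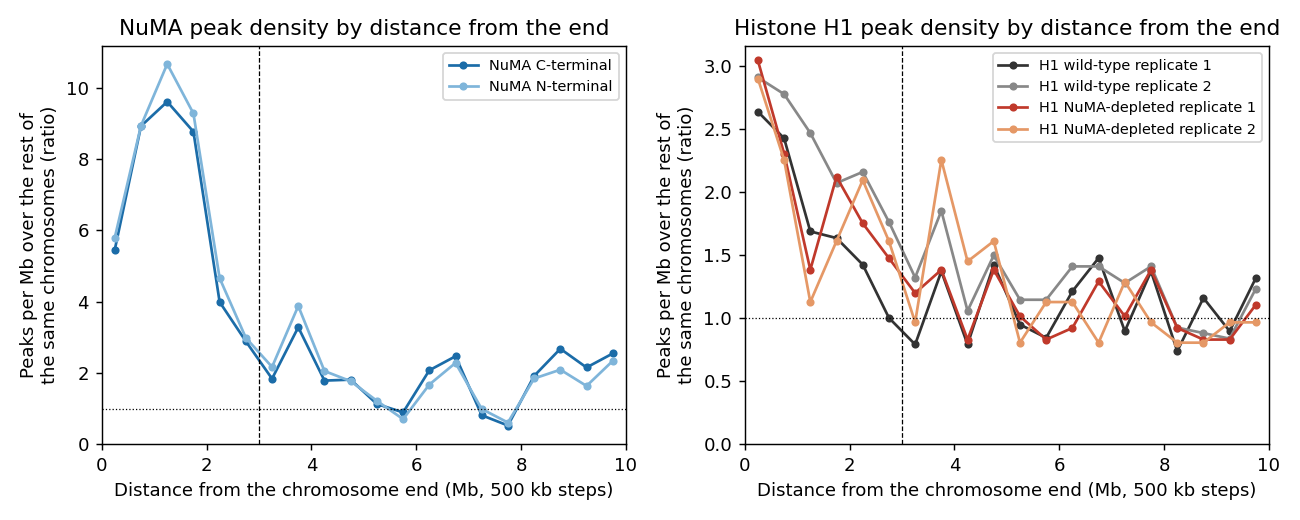
Peak density at the 25 chromosome ends in 500 kb steps, as a ratio to the rest of the same 14 chromosomes (vertical axis), against distance from the end in Mb (horizontal axis), with NuMA on the left and the 4 H1 libraries on the right. The dotted line marks a ratio of 1 and the dashed line the 3 Mb limit. Summed over ends, both NuMA lists peak between 1 and 1.5 Mb, at 9.61 and 10.7. The H1 lists have 2.64 to 3.04 in the outermost step, which includes peaks that define the ends.

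The ends differed widely in NuMA. The number of C-terminal peaks ranged from 0 to 214 with a median of 33, and that of N-terminal peaks from 0 to 304 with a median of 55. The 5 richest ends held 62.6% of the C-terminal and 57.5% of the N-terminal peaks at ends. They were the long arms of chromosome 9 (210 C-terminal and 304 N-terminal peaks), chromosome 8 (214 and 292) and chromosome 20 (201 and 261), the short arm of chromosome 1 (190 and 236) and the short arm of chromosome 11 (131 and 187). Relative to the rest of its own chromosome, the long-arm end of chromosome 8 stood highest, with ratios of 43.9 (C-terminal) and 41.3 (N-terminal). The long-arm end of chromosome 21, with fewer peaks (59 and 148), had ratios of 18.9 and 24.5. The rest of chromosome 21 takes in its whole short arm, and stretches without peaks were not left out of it.

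Other ends were nearly free of NuMA. The short-arm end of chromosome 3 had no peak in any of the 6 lists. The short-arm end of chromosome 9 had 0 C-terminal and 1 N-terminal peak, the long-arm end of chromosome 11 had 2 and 0, the short-arm end of chromosome 2 had 1 and 3, and the long-arm end of chromosome 6 had 1 and 8. The opposite ends of a chromosome could thus differ, as on chromosomes 9 and 11, where 1 end was among the 5 richest and the other among the 5 poorest. The density exceeded that of the rest of the same chromosome at 19 of 25 ends in the C-terminal and at 17 of 25 in the N-terminal list. The median end had a ratio of 2.64 (C-terminal) and 4.18 (N-terminal), well below the pooled 6.61 and 7.06. Without the richest end the pooled ratios were 5.91 and 6.35.

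**Figure D2:**
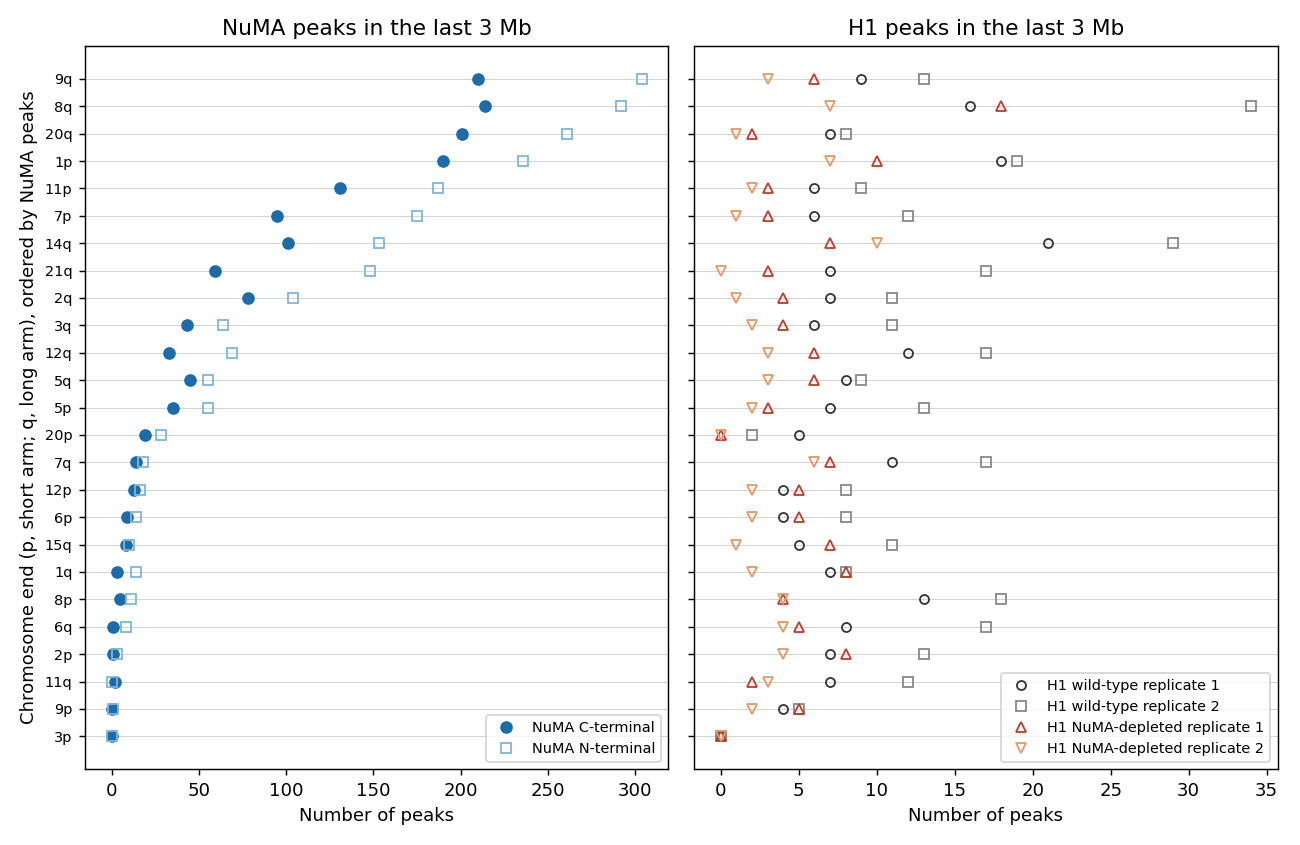
Number of peaks (horizontal axes) in the last 3 Mb of each of the 25 ends (vertical axis; p, short arm; q, long arm), ordered by NuMA peaks, with the 2 NuMA lists on the left and the 4 H1 libraries on the right. NuMA runs from 0 to 304 peaks per end, whereas H1 runs from 0 to 34 and is also present at ends with few NuMA peaks.

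The densest single steps lay on the same arms. The step 1 to 1.5 Mb from the short-arm end of chromosome 1 held 84 C-terminal and 100 N-terminal peaks, and the same step of the long arm of chromosome 9 held 84 and 99. The step 1.5 to 2 Mb from the long-arm end of chromosome 9 held 63 and 99, that of the long arm of chromosome 8 held 66 and 90, and the step 0.5 to 1 Mb from the short-arm end of chromosome 11 held 69 and 81. In the last of these no H1 list had a peak, and in the other 4 steps the H1 lists had 0 to 4 each. Of 150 such steps over the 25 ends, 43 had no NuMA peak of either antibody, and 26 of these 43 (60.5%) had a wild-type H1 peak, against 97 of the 107 steps with NuMA (90.7%). The 43 take in 2 stretches where no list had a peak. These were the whole short-arm end of chromosome 3 and the steps 1 to 3 Mb from the long-arm end of chromosome 11.

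NuMA peaks at the ends lay close together. The median distance between neighbouring summits was 5.49 kb (C-terminal) and 4.56 kb (N-terminal) at the ends and 20.3 and 21.2 kb in the rest. Summits less than 5 kb from the next made up 47.3% and 54.0% at the ends, against 23.2% and 24.3% in the rest. Shorter distances go with the higher peak density at the ends given above. Spacing was not compared at equal density, so it is no further property of the ends. Peaks at the ends were also wider, with a median of 830.5 bp (C-terminal) and 945.5 bp (N-terminal) against 670 and 744.5 bp. Together the peaks covered 2.31% (C-terminal) and 4.04% (N-terminal) of the ends but 0.255% and 0.389% of the rest.

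Although more numerous and wider, NuMA peaks at the ends had lower folds. The fold is the authors' ratio of fragments at the summit to the local background, and is compared here within a list. The median C-terminal fold was 4.28 at the ends (95% interval of the median from binomial order statistics 4.17 to 4.40) and 6.02 in the rest (5.91 to 6.09). The median N-terminal fold was 4.03 (3.93 to 4.14) and 5.06 (4.998 to 5.12). Of the ends with a peak, the median fold lay below that of the rest of the same chromosome at 23 of 23 (C-terminal) and 21 of 23 (N-terminal).

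Both sides of that ratio could be recovered from the fold and its p-value. The number of fragments at the summit was not lower at the ends, with a median of 33 against 25 (C-terminal) and 61.5 against 59 (N-terminal). The local background was higher, with a median of 7.31 against 3.31 fragments (C-terminal) and 15.2 against 11.4 (N-terminal). The sources used here do not give whether that background came from the library itself or from a control. The copy number of these arms in HCT116 moves both counts and was not tested.

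The lower fold was also seen against equally NuMA-dense parts of the rest. The 9 ends with the most C-terminal peaks, with 59 to 214 each, had a median fold of 4.17 (4.04 to 4.31). The 21 windows of 3 Mb in the rest with at least 59 C-terminal peaks had a median of 6.20 (6.09 to 6.40). In the N-terminal list the 9 richest ends had 4.02 (3.91 to 4.13) and the 7 windows as dense had 5.93 (5.75 to 6.05). The recovered background was 7.54 against 3.37 fragments (C-terminal) and 15.2 against 9.51 (N-terminal).

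**Figure D3:**
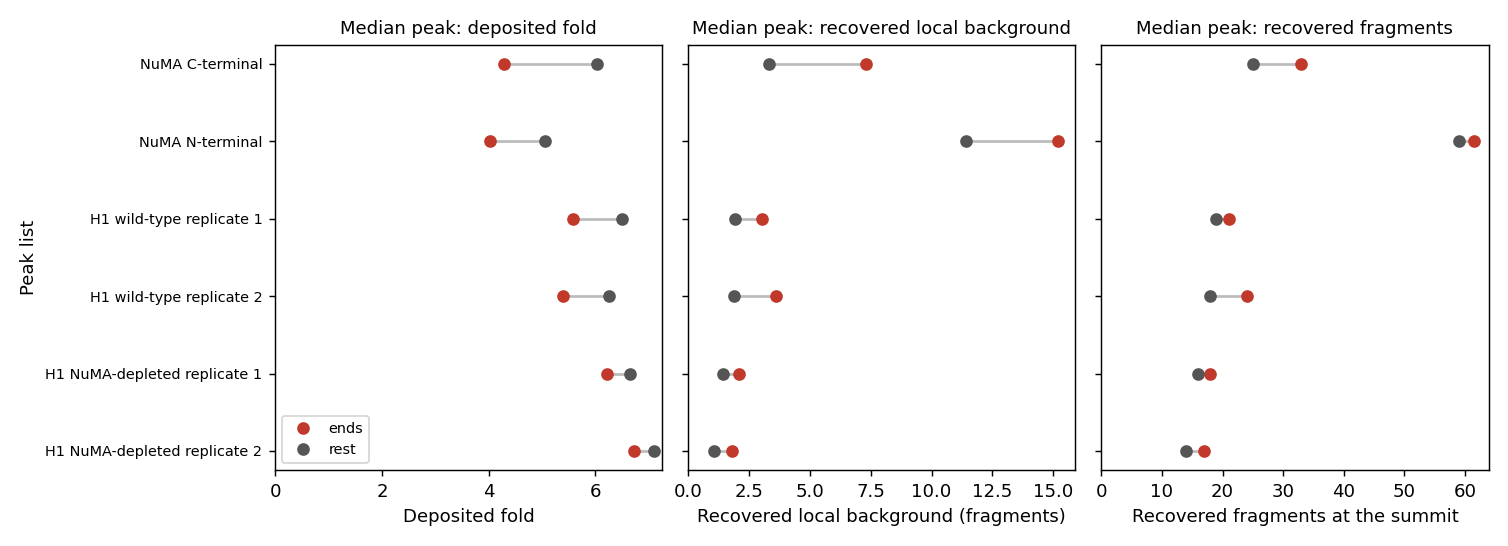
Median deposited fold (left), recovered local background in fragments (middle) and recovered fragments at the summit (right) for each of the 6 peak lists (vertical axis), at the ends (red) and in the rest of the same chromosomes (grey). In each list the fold is lower at the ends, and the background and the summit fragments are higher.

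By the 1 bp rule, but not by a stricter one, the NuMA antibodies shared more C-terminal peaks at the ends. Of 1510 C-terminal peaks there, 1219 (80.7%) overlapped an N-terminal peak by at least 1 bp, against 67.7% in the rest. Of 2226 N-terminal peaks, 1109 (49.8%) overlapped a C-terminal peak, against 48.2% in the rest. Both differences depended on the overlap rule and turned with a reciprocal overlap of 50%. The C-terminal share was then 48.8% at the ends and 54.7% in the rest, and the N-terminal share 33.1% and 39.6%. N-terminal peaks covered 4.04% of the ends but 0.389% of the rest, and overlap by position alone was not tested. N-terminal peaks with a partner had a median width of 1350 bp at the ends and 903 bp in the rest. C-terminal peaks with a partner had 934 and 758 bp.

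The 8 strongest regions of both antibodies at the ends were ranked by the lower of their folds, which are values of each peak in its own list. The first lay on the long arm of chromosome 5 (chr5:180646526-180647437 in hg19), 42.2 kb from the end, and had a C-terminal fold of 16.5 and an N-terminal fold of 15.7. The long arm of chromosome 21 (chr21:47683998-47685625) had 15.6 and 19.7, and the short arm of chromosome 7 (chr7:852929-854235) had 15.2 and 16.7. The short arm of chromosome 5 (chr5:910562-911799) had 13.3 and 13.0. The others lay on the long arm of chromosome 2 (chr2:242554914-242555874 and chr2:240170628-240173084), the short arm of chromosome 20 (chr20:388293-389601) and its long arm (chr20:61483375-61484170), with C-terminal folds of 12.01 to 14.7 and N-terminal folds of 12.1 to 19.8. All coordinates of single peaks are those of the authors' lists, in hg19, and for regions of several lists those of the C-terminal or the wild-type replicate 1 peak.

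Peaks of 1 antibody alone numbered 291 (C-terminal) and 1117 (N-terminal) at the ends. The strongest C-terminal ones lay on chromosome 8 (chr8:145991452-145992333) with a fold of 18.3, chromosome 15 (chr15:101254832-101256790) with 16.9 and chromosome 7 (chr7:1212093-1213282) with 14.4. The strongest N-terminal ones lay on chromosome 12 (chr12:132345263-132345816) with 11.52, chromosome 9 (chr9:138357154-138357894) with 11.47 and chromosome 20 (chr20:2450874-2451550) with 11.2. The C-terminal folds without a partner were higher than those with one (median 5.90 against 3.96), whereas the N-terminal ones were lower (3.27 against 4.89). The rest had the same order, with 6.77 against 5.22 (C-terminal) and 4.04 against 6.18 (N-terminal).

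H1 peaks were also denser at the ends, by a smaller factor and in each of the 4 libraries. The excess was smaller against the adjoining 3 Mb of each arm than against the whole rest, which includes stretches without any peak. Against that adjoining 3 Mb, wild-type replicates 1 and 2 had ratios of 1.75 and 1.76, depleted replicates 1 and 2 had 1.82 and 1.41. The wild-type libraries held 2.73 and 4.28 peaks per Mb at the ends and 1.52 and 1.82 in the rest, ratios of 1.80 and 2.36. The depleted libraries held 1.75 and 0.96 per Mb at the ends and 0.868 and 0.497 in the rest, ratios of 2.01 and 1.93. The depleted ratios lay between the wild-type ones, so the groups overlapped. The log2 ratio was 1.04 ± 0.27 (SD, n = 2) for the wild-type libraries, against 0.98 ± 0.042 (SD, n = 2) for the depleted ones, a difference of −0.063 (exact permutation p = 1).

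H1 was denser in the outer 1 Mb of the ends than further in. In the outermost 500 kb the density was 2.64 and 2.91 times (wild type) and 3.04 and 2.90 times (depleted) that of the rest. The long-arm end was itself set by an H1 peak on 7 chromosomes, so that step holds those peaks by construction. Without peaks that overlap an end-defining peak, a setting chosen after seeing the data, the outermost step had 44 and 60 wild-type peaks against 46 and 63 in the second step, and 29 and 16 depleted peaks against 25 and 14. The order of the first 2 steps thus turned in both wild-type libraries. Between 1 and 1.5 Mb, where NuMA was densest, it was 1.69 and 2.47 times in the wild-type libraries, against 1.38 and 1.13 times after depletion. In that step the 2 wild-type lists had 32 and 56 peaks and the depleted lists 15 and 7. Depleted over wild type was 0.250 for the means, the lowest of the 6 steps but based on few depleted peaks. It was 0.358 at 0.5 to 1 Mb and 0.423 at 1.5 to 2 Mb, where NuMA was nearly as dense. At 2 to 2.5 and 2.5 to 3 Mb it was 0.421 and 0.441. The H1 density at 1.5 to 2 Mb overlapped between the groups, at 1.63 and 2.07 times (wild type) and 2.12 and 1.61 times (depleted). Whether the fall in H1 peaks follows NuMA density was not tested. Over all the ends depleted over wild type was 0.386, and in the rest it was 0.409. In the outermost step the lists had 50 and 66 (wild type) and 33 and 18 peaks (depleted), with a ratio of 0.440. With 2 against 2 libraries, each of the 6 steps had an exact permutation p of 0.333, the smallest possible.

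H1 was spread more evenly over the ends than NuMA. The median end had 7 and 12 wild-type H1 peaks and 5 and 2 depleted ones, and the density exceeded that of the rest of the chromosome at 24 and 23 of 25 ends in wild-type and at 21 and 20 in depleted libraries. The ends richest in wild-type H1 were the long arms of chromosome 14 (21 and 29 peaks) and chromosome 8 (16 and 34), the short arms of chromosome 1 (18 and 19) and chromosome 8 (13 and 18), and the long arm of chromosome 12 (12 and 17). The poorest were the short arms of chromosome 3 (0 and 0), chromosome 20 (5 and 2) and chromosome 9 (4 and 5). The 9 ends poorest in NuMA, with 0 to 23 NuMA peaks each, still held 2.04 and 3.41 wild-type H1 peaks per Mb, against 3.59 and 5.63 at the 9 richest in NuMA. The densest H1 step lay 1 to 1.5 Mb from the long-arm end of chromosome 14, with 6 and 14 wild-type and 2 and 3 depleted peaks. The outermost steps of the long arms of chromosomes 6, 8 and 11 followed, each with 5 and 8 wild-type peaks.

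Fewer H1 peaks were called at the ends after NuMA depletion, as in the rest. The lists held 205 and 321 peaks at the ends in wild type and 131 and 72 after depletion, so both depleted libraries lay below both wild-type ones. The means were 263 ± 82.0 and 101.5 ± 41.7 (SD, n = 2), a log2 ratio of −1.37 (exact permutation p = 0.333, the smallest possible), and in the rest the log2 ratio was −1.29. The number of H1 peaks was lower in both depleted libraries at 17 of 25 ends (68%), against 56.9% of all 684 windows of 3 Mb on these chromosomes. At 0 ends did both depleted libraries exceed both wild-type ones (background 0.292%). The share of the list's H1 peaks, which takes out list length, was lower in both depleted libraries at 8 ends (background 18.4%) and higher at 3 ends (background 16.4%). The 8 ends were the long arms of chromosomes 2, 12, 20 and 21 and the short arms of chromosomes 5, 7, 8 and 20, and the 3 ends were the short arms of chromosomes 2 and 9 and the long arm of chromosome 5. Windows with few peaks separate the groups less readily. The ends held a median of 18 wild-type H1 peaks of both lists, against 9 in windows of the rest, so ends and background are not like for like.

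The direction turned when the lists were cut to equal length by fold. With each H1 list reduced to its 1480 peaks of highest fold, the length of the shortest list, the ends held 42 and 53 wild-type and 63 and 72 depleted peaks, a log2 ratio of 0.51 (exact permutation p = 0.333). The density ratio was then 1.07 and 1.38 in the wild-type libraries, against 1.64 and 1.93 after depletion. That rule keeps the highest folds, and the lowest fold kept was 7.08 and 7.17 in wild-type but 6.36 and 1.94 in depleted lists. It thus changes fold as well as length, and the part of each was not tested. Without the cut, the ends held 6.32% and 8.11% of the wild-type peaks of these chromosomes. In the depleted lists it was 7.01% and 6.75%, so the groups overlapped.

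H1 folds were lower at the ends than in the rest in 3 of the 4 libraries beyond the intervals of the medians. In wild-type replicate 1 the median was 5.59 at the ends (5.39 to 5.98) and 6.51 in the rest (6.42 to 6.56), and in replicate 2 it was 5.39 (5.18 to 5.59) and 6.26 (6.20 to 6.33). Depleted replicate 1 had 6.21 (5.86 to 6.51) and 6.64 (6.56 to 6.73). In depleted replicate 2, with 72 peaks at the ends, the medians were 6.73 (6.02 to 7.30) and 7.10 (6.96 to 7.21), and the intervals overlapped. The median fold lay below that of the rest of the same chromosome at 17 of 24 and 20 of 24 ends with a peak in the wild-type lists, and at 15 of 23 and 11 of 22 in the depleted ones. The log2 ratio of ends to rest was −0.22 and −0.21 in the wild-type libraries, against −0.097 and −0.078 after depletion, groups that did not overlap (difference 0.13, exact permutation p = 0.333, the smallest possible). With lists of equal length the difference was −0.018. The recovered background at a median peak was 3.04 and 3.60 fragments at the ends and 1.93 and 1.87 in the rest in wild type. In the depleted libraries it was 2.07 and 1.80 at the ends and 1.43 and 1.07 in the rest.

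The H1 peaks of the outermost 100 kb include those that define the ends, since 7 of the 23 merged H1 regions there hold the last base of their chromosome by the rule. The wild-type lists had 17 peaks each there and the depleted lists 12 and 6, with median folds of 6.83, 6.60, 7.89 and 11.1, against 5.52, 5.33, 6.10 and 6.33 from 100 kb to 3 Mb. Without peaks that overlap an end-defining peak there were 11, 11, 8 and 4, with median folds of 6.83, 7.47, 7.39 and 10.8. The peak at the tip of the long arm of chromosome 12 (chr12:133841529-133841879) had folds of 20.5 and 23.4 in the wild-type libraries, against 19.5 and 19.2 after depletion. It defines that end, it was the third highest of each H1 list on the 14 chromosomes, and both depleted folds lay below both wild-type folds. The tip of the long arm of chromosome 1 (chr1:249240023-249240392) had 12.6 and 14.2 in the wild-type libraries, against 11.4 and 13.5 after depletion, which overlapped. The start of the short arm of chromosome 1 (chr1:10004-10466) had 10.9 and 12.3 in the wild-type libraries, against 11.4 and 10.5 after depletion, which overlapped too.

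The H1 peaks of the 4 lists within 100 kb of an end merged into 23 regions, of which 5 were called in 4 lists, 6 in 3, 2 in 2 and 10 in 1. Of the 23, 6 (26.1%) overlapped a NuMA peak of either antibody, and over all H1 peaks at the ends that share was 20.2% to 36.6% in the 4 lists. Besides the 3 named above, the 5 regions called in 4 lists lay on the short arm of chromosome 5 (chr5:10058-11771), where the 4 folds were 8.57 to 11.1, and on that of chromosome 12 (chr12:95342-95736), where they were 7.97 to 12.1. No list of artefact-prone regions was used here, and the sequence under these peaks was not analysed here.

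Regions of both NuMA antibodies carried H1 peaks less often at the ends than in the rest. Of the 1219 such regions at the ends, 22 (1.80%) and 26 (2.13%) overlapped a wild-type H1 peak, against 10.4% and 9.69% of the 4130 in the rest. In the depleted libraries it was 25 (2.05%) and 9 (0.738%), against 7.05% and 3.05%. The share in the rest was 5.76 and 4.54 times that at the ends in the wild-type libraries, against 3.44 and 4.13 times after depletion, and the 95% exact intervals of ends and rest did not overlap in any of the 4. Intervals cover counting error alone and regions are not replicates, so this described the lists and was not a test. The share also falls where there are fewer H1 peaks per NuMA region. The ends were 6.61 and 7.06 times denser than the rest in NuMA peaks, but 1.80 to 2.36 times in H1 peaks.

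The share was lower at the ends than in the rest as a whole in each quartile of NuMA fold and each H1 library. The regions were put into quartiles by the lower of the NuMA folds. In the lowest quartile 1.67% and 3.33% of the 480 regions at the ends overlapped a wild-type H1 peak, against 13.6% and 12.9% of 858 in the rest. In the highest quartile it was 2.96% and 0.741% of 135 at the ends, against 7.99% and 7.32% of 1202. In the 21 windows of the rest as dense in C-terminal peaks as the 9 richest ends the shares lay between, at 3.70% and 4.95% of 1434 regions in the wild-type libraries, against 3.35% and 1.39% after depletion. Split by quartile, the ends were not lower than these windows throughout. They were higher in the highest quartile of wild-type replicate 1 (2.96% against 1.83%). The same held in the lowest of depleted replicate 1 (3.125% against 2.43%) and the third of depleted replicate 2 (0.826% against 0.696%). Elsewhere the ends were lower.

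**Figure D4:**
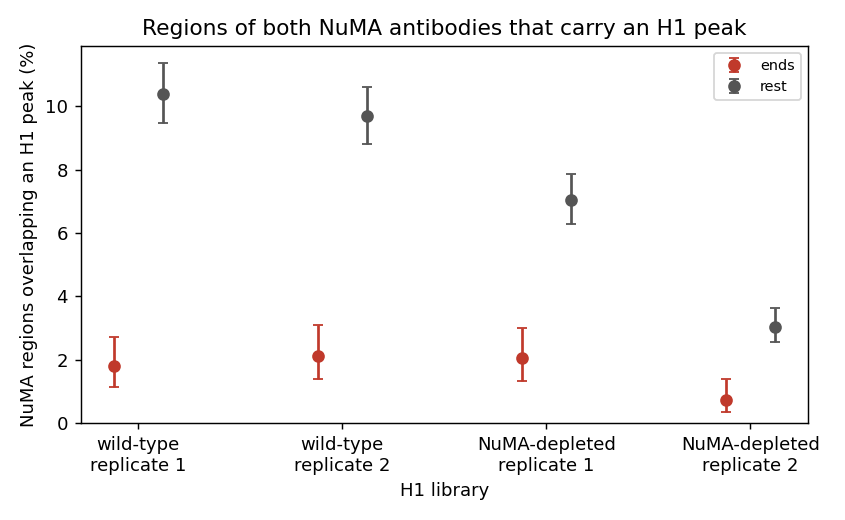
Share of regions called with both NuMA antibodies that overlapped an H1 peak (vertical axis, %), at the ends (red, 1219 regions) and in the rest (grey, 4130 regions), for each H1 library (horizontal axis). Bars are 95% exact binomial intervals. The share is 0.738% to 2.13% at the ends and 3.05% to 10.4% in the rest.

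Seen from the H1 side, the share at NuMA was lower at the ends in both wild-type libraries and in 1 of the 2 depleted ones. The exact binomial intervals of ends and rest overlapped in each library, unlike those seen from the NuMA side. Of the wild-type H1 peaks at the ends, 22 of 205 (10.7%) and 26 of 321 (8.10%) lay on a region of both NuMA antibodies, against 14.1% and 11.03% in the rest. In depleted libraries it was 25 of 131 (19.1%) and 9 of 72 (12.5%), against 16.7% and 12.7%. The difference between ends and rest was −3.38 and −2.93 percentage points in the wild-type libraries, against 2.34 and −0.163 after depletion (exact permutation p = 0.333, the smallest possible). With ends of 1.5 Mb the difference between the groups turned, from 4.24 to −0.68 percentage points, and with a reciprocal overlap of 50% it was 0.309.

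The share of wild-type H1 regions also called after depletion was 57.5% at the ends and 60.7% in the rest, with overlapping intervals. Of the 120 regions at the ends called in both wild-type lists, 28 (23.3%) were called in both depleted lists, 41 in 1 and 51 (42.5%) in neither, where the share called in neither over all 1771 regions of these chromosomes was 39.5%. At least 1 depleted list thus held 69 of 120 (57.5%, 95% exact interval 48.1 to 66.5), against 60.7% (58.3 to 63.1) of the 1651 in the rest and 60.5% of all 1771. Depleted replicate 1 held 47.5% and replicate 2 held 33.3%, against 50.6% and 34.2% in the rest. The difference of −3.19 percentage points turned to 1.85 without wild-type replicate 2, to 8.05 with lists of equal length (18 of 22 against 315 of 427 regions) and to 0.054 with ends of 1.5 Mb.

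Regions at the ends were weaker to begin with, and retention rose with strength in both places. Of the 120, 51.7% were in the lowest quartile of wild-type fold and 17.5% in the highest. At the ends 41.9% of 62, 60.9% of 23, 71.4% of 14 and 90.5% of 21 regions were kept from the lowest to the highest quartile, against 48.8%, 52.3%, 63.2% and 77.3% in the rest. The exact intervals of ends and rest overlapped in each quartile. Weighted to the quartiles of the ends, the rest would have kept 56.1%.

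**Figure D5:**
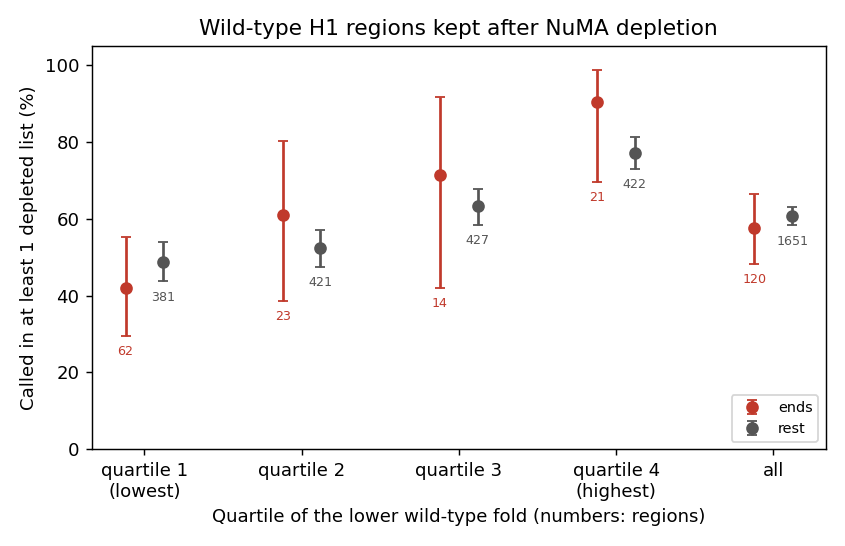
Share of wild-type H1 regions called in at least 1 depleted list (vertical axis, %), by quartile of the lower wild-type fold and for all regions (horizontal axis), at the ends (red) and in the rest (grey). Bars are 95% exact binomial intervals and the small numbers count regions. Shares rise from 41.9% to 90.5% at the ends and from 48.8% to 77.3% in the rest, with overlapping intervals.

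In the outermost 500 kb, 28 of 36 regions (77.8%) were kept, or 25 of 32 (78.1%) without those that overlap an end-defining peak, against 13 of 27, 5 of 13, 8 of 15, 12 of 18 and 3 of 11 in the following steps. The median lower wild-type fold was 6.14 in that step and 4.53 to 5.50 in the other 5. The steps hold few regions, and the exact interval of the outermost step (60.8 to 89.9) overlapped that of each other step.

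The strongest regions kept in all 4 lists, besides the chromosome 12 and chromosome 1 tips, lay on the long arm of chromosome 6 (chr6:170686059-170686843) and on the long arm of chromosome 1 (chr1:246729508-246730104). The first had folds of 13.4 and 14.9 in the wild-type libraries, against 12.3 and 11.7 after depletion, so both depleted folds were the lower. The second had 10.9 and 10.8 in the wild-type libraries, against 10.98 and 12.3 after depletion, so both depleted folds were the higher. A further region on the long arm of chromosome 6 (chr6:170461233-170461632) had 14.9 and 14.4 in the wild-type libraries, against 9.69 and 13.0 after depletion, so both depleted folds were the lower again. Depth moves folds, and the estimated depth differed between the groups. Of the 28 regions kept in all 4 lists, 1 lay on a region of both NuMA antibodies, on the long arm of chromosome 14 (chr14:105218980-105219441), with H1 folds of 6.31 and 5.29 in the wild-type libraries, against 6.49 and 8.16 after depletion.

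The strongest of the 51 regions called in neither depleted list had wild-type folds of 6.26 to 7.81. The first, near the start of chromosome 2 (chr2:1310452-1310802), had 7.81 and 7.36, followed by the long arm of chromosome 15 (chr15:101874388-101874716) with 7.24 and 7.25. The short arm of chromosome 8 (chr8:1555904-1556242) had 7.06 and 7.62, and that of chromosome 20 (chr20:2332563-2332884) had 6.87 and 7.54. The long arm of chromosome 21 (chr21:45358890-45359257) had 6.97 and 6.74, and the short arm of chromosome 7 (chr7:2490921-2491453) had 7.56 and 6.26. Of all 51, 1 (1.96%) lay on a region of both NuMA antibodies, as did 9 of the 120 (7.5%). In the other direction, 37 regions at the ends were called in both depleted lists, and both wild-type lists held 28 of them (75.7%), 1 list held 8 and neither held 1, against 80.6% in both and 5.67% in neither in the rest. That 1 region lay on the short arm of chromosome 6 (chr6:2932351-2932865), and its depleted folds were 7.41 and 9.71.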

How the data were processed

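The submitters' processing notes name hg19 as the build and Bowtie2, MACS2, Picard and Trim Galore as tools. No version or setting was found in the labels. CUT&Tag is the labelled assay of all samples, and the NuMA peak names hold the word ChIP-seq. The authors deposited 1 peak list per library, each peak with a fold (a ratio of summit to local background), a −log10 p, a −log10 q, a summit offset and a score. The deposited score was not used. The peak names hold a q limit of 0.001, and the deposited q-values start there.

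Members and lists were chosen with earlier results of these data known. Peaks were assigned by summit, and 1 bp of overlap counted as shared. Regions shared by lists were counted on wild-type replicate 1, depleted replicate 1 or the C-terminal list. Summit fragments and background were solved from the fold, (fragments + 1) / (background + 1), and the Poisson tail p, and came within 0.01 of a whole number for 98.7% to 100% of peaks. Relative depth is the lowest background over the shortest peak. H1 groups were compared by exact two-sided permutation of libraries. Scripts were tested on simulated data. Named regions are the highest by the lower fold: 8 of both antibodies, 3 of each antibody alone, 6 of H1 in all 4 lists and 6 in wild type alone. Named ends and steps are those with the most or fewest peaks. The chromosome 21 ratio and the regions within 100 kb of an end were singled out after their values were seen. hg19 sequence and genes were not used here. Python 3.11.15, with pandas 2.3.3, numpy 2.4.6, matplotlib 3.10.9 and scipy 1.17.1, was used.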

Additional observations from a re-analysis of the deposited data

How the results depend on the processing

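Of 100 combinations of a result and another setting, 72 counted as the same, 17 moved further and 11 changed sign. For comparisons of H1 groups, the same meant the same sign alone, however far the value moved. For the other results it also meant a value within the interval of the main setting. No comparison of H1 groups could pass a threshold under any setting. The NuMA density ratio (C-terminal, then N-terminal) was 7.43 and 7.81 with ends of 1.5 Mb, 4.99 and 5.43 with 5 Mb, 4.83 and 5.16 over 500 kb steps that hold a peak, 3.69 and 3.59 against 3 to 6 Mb, 5.91 and 6.35 without the richest end, and 2.64 and 4.18 as the median over ends, a setting chosen after seeing the data. The log2 ratio of NuMA folds was −0.45 (C-terminal) for a −log10 q of at least 5, −0.29 (N-terminal) with ends of 1.5 Mb, and −0.57 and −0.56 against equally dense windows, also chosen after seeing the data. The partner difference of C-terminal peaks was 9.38 percentage points with ends of 5 Mb and −5.85 with a reciprocal overlap of 50%. Lists cut to equal length by fold turned the log2 H1 number to 0.51, the density difference to 0.55, the fold difference to −0.018 and the retention difference to 8.05 percentage points. The H1 density difference also turned to 0.0042 with ends of 5 Mb and 0.045 as the median over ends. Ends of 1.5 Mb turned the share at NuMA sites to −0.68 and retention to 0.054 percentage points. Leaving out 1 library at a time gave −1.87 to −1.01 for the log2 H1 number, −0.26 to 0.13 for the density difference, 0.12 to 0.14 for the fold difference, 2.99 to 5.50 for the share at NuMA sites and −6.71 to 1.85 for retention. The cause of these changes was not tested. Wild-type and depleted libraries share only a number, and over 684 windows same-numbered libraries deviated with a correlation of −0.062. With the number as a replicate block the log2 H1 number was −1.40, the density difference −0.063, the fold difference 0.13 and the share at NuMA sites 4.24 percentage points (exact sign-flip p of 0.5 or 1), and no call changed.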

Other observations

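Ranked among all 684 windows of 3 Mb on the 14 chromosomes, of which the 25 ends are 3.65%, the ends made up 9 of the 25 windows with the most NuMA peaks and 6 of the 25 with the most wild-type H1 peaks. The median number of NuMA peaks of both antibodies was 90 at an end and 6 in a window of the rest, and that of wild-type H1 peaks was 18 and 9. Across the 25 ends, which share libraries and depth and are not replicates, the number of C-terminal and N-terminal peaks had a Spearman rho of 0.98. It was 0.85 between the wild-type and 0.69 between the depleted H1 libraries. NuMA and wild-type H1 peaks had a rho of 0.37, and NuMA and depleted H1 peaks 0.093.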
